A study of Mus musculus with 82 samples.

Results

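The locus described here is a megabase of mouse chromosome 5 (chr5:115000001-116000000 on mm10, GRCm38), which runs from Sppl3 to Cit and was chosen because Adnp peaks lie densely in it. Its members are the 10 protein-coding genes Sppl3, Mlec, Rnf10, Dynll1, Srsf9, Msi1, Pxn, Gcn1, Rab35 and Cit, taken by symbol from the 49214 annotated genes of chromosomes 1 to 19 and X. The locus holds 51 of the 15009 Adnp peaks and 0 of the 2000 HP1γ peaks listed on those chromosomes. The number of peaks chose the locus, so that number and the spacing that follows from it are given as a description with no test.

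The study used mouse embryonic stem cells of a hybrid 129-C57BL/6 background, kept in 2i medium with LIF. The Adnp list is tied by the series description to 3 ChIP-seq replicates from untreated Adnp FlagAvi cells, labelled wt, in which Adnp carries a tag captured on streptavidin beads. The HP1γ list is tied to 3 replicates from untreated Cbx3 FlagAvi, Adnp KO cells and 3 from untreated Cbx3 FlagAvi cells labelled wt, and by its title holds peaks without the Adnp motif. Cbx3 is the gene of HP1γ, and the list does not say which genotype gave a peak. All these cells carry a FlagAvi allele, and the labels do not say how many clones were used. There is 1 list for all replicates of a factor, so there is no value per replicate, no error between replicates and no test between conditions, and sequencing depth is unknown.

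Adnp is a zinc finger and homeodomain protein. With the chromatin remodeller Chd4 and HP1 proteins it forms the ChAHP complex, which binds DNA at particular sequences and is known for holding lineage genes and transposable elements in check in embryonic stem cells. HP1 proteins are best known as readers of methylated histone H3 in heterochromatin, and the ChAHP complex brings them to sites outside it.

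The members have unrelated roles. Msi1 encodes Musashi, an RNA-binding protein of neural and epithelial progenitors, and Srsf9 a splicing factor. Cit encodes citron kinase, which acts at the midbody in cytokinesis, Pxn the focal adhesion adaptor paxillin, and Dynll1 a light chain of dynein. Gcn1 binds ribosomes and activates the Gcn2 kinase, and Rnf10 is a RING finger ubiquitin ligase. Rab35 is a small GTPase of endosome recycling, Sppl3 an intramembrane protease that trims Golgi glycosyltransferases, and Mlec (malectin) a lectin of the endoplasmic reticulum.

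RefSeq sequences (GRCm38.p6) cover 28 promoter windows in the locus, 250 bases before to 50 after a start, some of them of lncRNA genes. Of these 28 windows, 1 was overlapped by an Adnp peak. It belongs to Pop5, a subunit gene of RNase P and RNase MRP that is no member, at chr5:115235601-115235900 on the plus strand. The peak covers 153 of its bases, across the start. Among members, 8 have a promoter sequence and 0 of the 8 windows were overlapped. Of the 21045 windows of protein-coding genes with such a sequence, 1.20% were overlapped. Pop5 is printed with the bases under the peak in capitals. The other 3 are members: Rnf10 (minus strand, chr5:115272846-115273145), whose start lies nearest to a peak, Srsf9 (plus strand, chr5:115326927-115327226), which holds GCCCTCT as well as GCCCCCT, and Cit (plus strand, chr5:115845406-115845705), after which the locus is named. In these 3 the capitals mark a match, on either strand, of the words GCCCTCT (in Srsf9), GCCCCCT (in Srsf9 and, as its complement, in Cit) and TATAAA (in Rnf10).
Pop5 promoter: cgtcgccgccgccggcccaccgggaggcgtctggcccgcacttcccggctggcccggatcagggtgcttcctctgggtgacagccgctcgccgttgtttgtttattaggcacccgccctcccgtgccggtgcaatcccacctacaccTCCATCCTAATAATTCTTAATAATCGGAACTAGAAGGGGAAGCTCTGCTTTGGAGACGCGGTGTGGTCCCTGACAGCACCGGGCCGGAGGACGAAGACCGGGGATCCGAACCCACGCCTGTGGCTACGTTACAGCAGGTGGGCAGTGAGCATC
Rnf10 promoter: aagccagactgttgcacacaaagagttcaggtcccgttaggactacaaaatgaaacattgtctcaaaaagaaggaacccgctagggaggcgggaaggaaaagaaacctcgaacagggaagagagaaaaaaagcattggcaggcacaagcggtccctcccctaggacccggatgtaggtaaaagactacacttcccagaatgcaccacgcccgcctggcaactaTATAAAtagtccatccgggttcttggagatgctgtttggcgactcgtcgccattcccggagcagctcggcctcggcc
Srsf9 promoter: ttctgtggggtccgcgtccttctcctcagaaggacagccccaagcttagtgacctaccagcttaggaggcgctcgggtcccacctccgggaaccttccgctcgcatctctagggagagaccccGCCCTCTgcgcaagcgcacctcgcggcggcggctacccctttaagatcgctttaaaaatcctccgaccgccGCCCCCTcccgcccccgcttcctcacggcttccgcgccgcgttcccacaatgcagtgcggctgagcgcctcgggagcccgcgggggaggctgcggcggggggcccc
Cit promoter: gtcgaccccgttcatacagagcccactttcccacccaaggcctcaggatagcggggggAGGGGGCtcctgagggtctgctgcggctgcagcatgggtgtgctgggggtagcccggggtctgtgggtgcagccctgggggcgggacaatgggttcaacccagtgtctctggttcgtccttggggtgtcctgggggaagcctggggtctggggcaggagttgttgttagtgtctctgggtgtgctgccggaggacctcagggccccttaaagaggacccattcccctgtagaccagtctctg

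The word GCCCTCT was present in 3 of the 8 member promoters (Sppl3, Srsf9 and Rab35) and in 9.19% of the 21045 windows of protein-coding genes; it is a core word of the sequence known for Adnp, as is GCCCCCT. The word GCCCCCT was present in 2 (Srsf9 and Cit) and in 13.0% of all windows. The shorter CCCTC, which lies within GCCCTCT, was present in 8 of 8 and in 70.1% of all, and TATAAA in 1 (Rnf10) and in 12.7%. A match describes these letters and not binding. The 8 windows had a median G and C content of 71.2%, from 52.7% at Rnf10 to 81.3% at Sppl3, against a median of 56.7% over all windows.

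Peaks were spread unevenly along the megabase. In steps of 100 kb from the lower to the upper boundary the counts were 4, 7, 9, 5, 10, 4, 2, 5, 1 and 4. The step from 115.4 to 115.5 Mb, with the upper part of Msi1, Pla2g1b, Sirt4 and the lower end of Pxn, held most, and the step from 115.8 to 115.9 Mb, with the lower part of Cit, held fewest. The first peak within the locus began 4.89 kb above its lower boundary and had a score of 28.1, and the last peak below it lay 5.05 kb outside with a score of 18.2. At the upper boundary the last peak inside (score 95.6) ended 42.3 kb below it and the next (score 25.6) began 24.5 kb above. The score is the authors' own value per peak, of a kind not stated, used here only to rank peaks within the list.

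**Figure D1:**
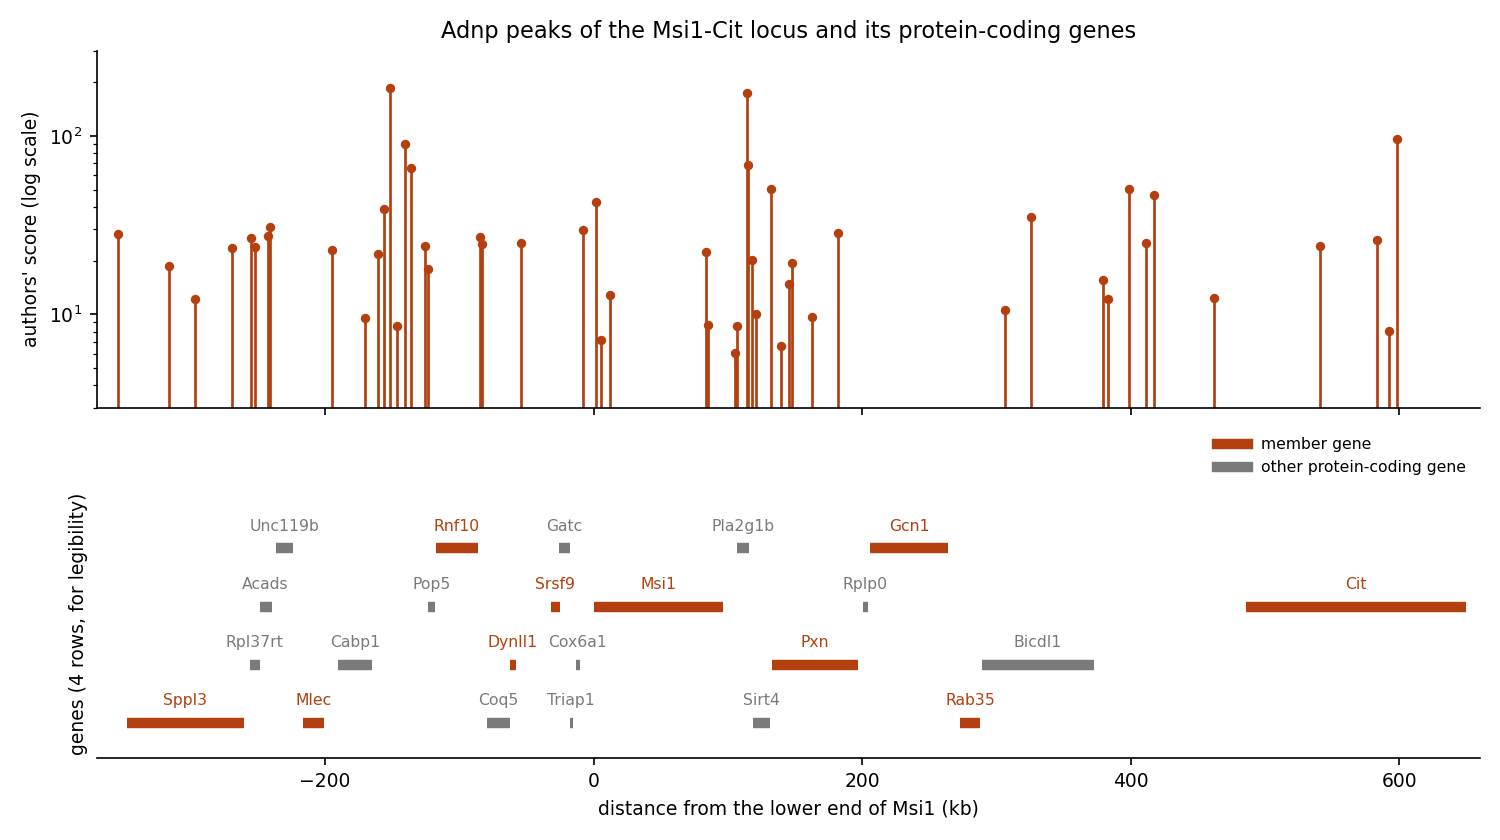
Adnp peaks of the locus by distance from the lower end of Msi1 (kb, x axis) and by authors' score (log scale, upper panel), above its 23 protein-coding genes (lower panel, members in orange and other genes in grey, on 4 rows for legibility). The 2 highest scores, 186 and 175, lie left and right of Msi1 outside the members, and the longest stretch without a peak spans Gcn1 and Rab35.

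Neighbouring peaks lay a median of 8624 bp apart, edge to edge (95% order-statistic interval 5369 to 15178 bp, 50 gaps), against 29402 bp over the whole list. The quartiles were 3481 and 23109 bp in the locus and 8413 and 90179 bp over the list. Of the 50 gaps, 3 were of at most 1 kb, against 717 of the 14989 gaps of the list. At most 10 kb were 27 of the 50, against 4170 of the 14989. The shortest, 154 bp, separated 2 peaks in Pla2g1b.

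A run is taken as 4 or more neighbouring peaks with gaps of at most 10 kb. The locus had 5 runs, which held 25 of its 51 peaks (49.0%), where runs held 12.7% of the whole list. The longest, of 7 peaks over 34.1 kb (chr5:115188857-115222948), ran from Cabp1, a calcium-binding protein gene, into the space before Pop5. A run of 6 over 15.9 kb (chr5:115464503-115480355) covered Pla2g1b, the pancreatic phospholipase gene, and the nearer end of Sirt4, a mitochondrial sirtuin gene. The other 3 held 4 peaks each. They lay over Rpl37rt and Acads (chr5:115103552-115118120), at the lower end of Msi1 (chr5:115351132-115371779) and at the lower end of Pxn (chr5:115491152-115506997). The one at Pxn began 10796 bp after the Pla2g1b run. In the run over Rpl37rt and Acads, the peak with the highest score, 31.0, also lay 4446 bp from Unc119b, which held no peak inside.

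**Figure D2:**
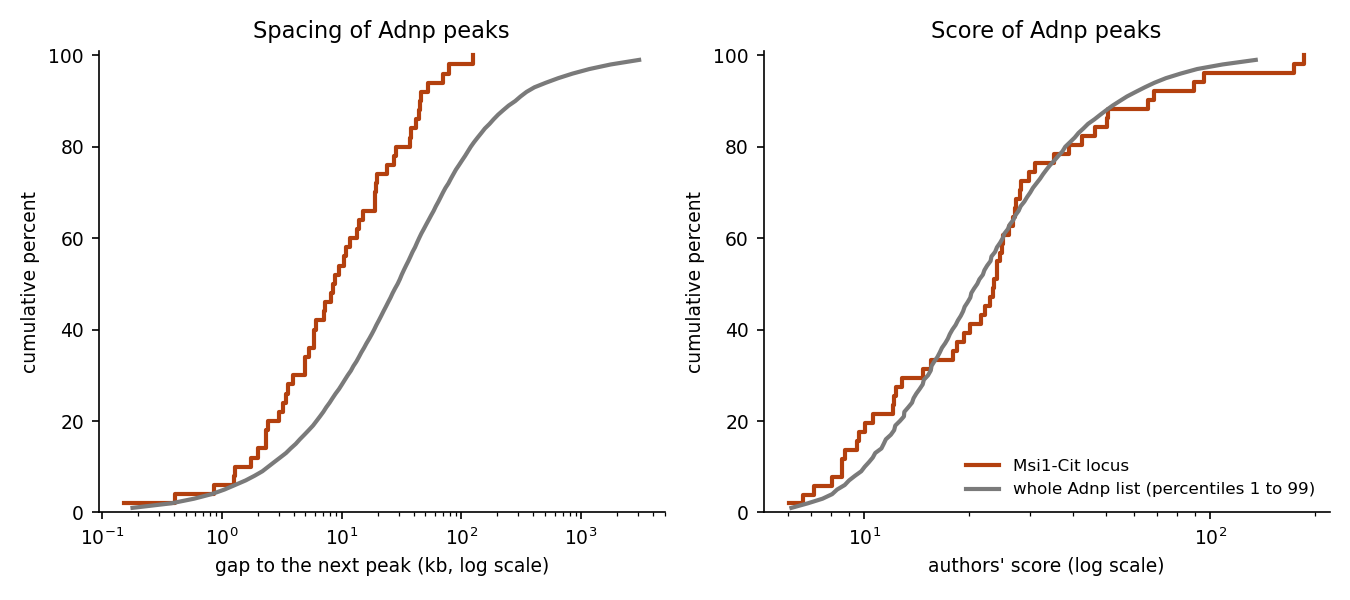
Cumulative percent of the locus's Adnp peaks (orange steps) and of the whole Adnp list (grey, percentiles 1 to 99) by gap to the next peak (kb, left panel) and by authors' score (right panel), both on log axes. Gaps are shorter in the locus, with a median of 8624 bp against 29402 bp, while the score curves run close together, with medians of 23.7 and 21.2.

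The 3 longest stretches without a peak in the locus all fell on members. The longest, 124238 bp (chr5:115541071-115665308), took in Gcn1, Rab35 and the ribosomal protein gene Rplp0 whole, with the upper part of Pxn and the lower part of Bicdl1, a dynein adaptor gene. It was bounded by a peak in Pxn with a score of 28.4 and a peak in Bicdl1 with a score of 10.6. The next, 78239 bp (chr5:115821612-115899850), ran from the space below Cit into its lower part, between peaks with scores of 12.3 and 24.1. The third, 70778 bp (chr5:115371780-115442557), lay within Msi1, between peaks with scores of 12.8 and 22.2. The list's numbering skips 3, 1 and 3 numbers in these stretches, and what carried those numbers is not stated.

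Members held a smaller share of the peaks than of the locus's length. Peaks inside a member numbered 17 of 51 (33.3%), while members cover 53.2% of the locus. Msi1 and Cit, after which the locus is called, held 5 and 4. A further 11 peaks lay inside other protein-coding genes, 4 inside lncRNA genes alone and 19 in no gene. Peaks lay inside 4 of the 10 members, and of all 21523 protein-coding genes 20.7% held one. Within 5 kb of an end, 5 of the 10 had a peak (Sppl3, Rnf10, Dynll1, Msi1 and Pxn), against 19.3% of all. Within 1 kb of an end, Pxn alone had one, against 5.38% of all. The locus was chosen for dense peaks, which raises the counts of members with a peak, so nothing is read from those counts. The lower share of peaks inside members does not follow from that choice and was not tested.

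**Figure D3:**
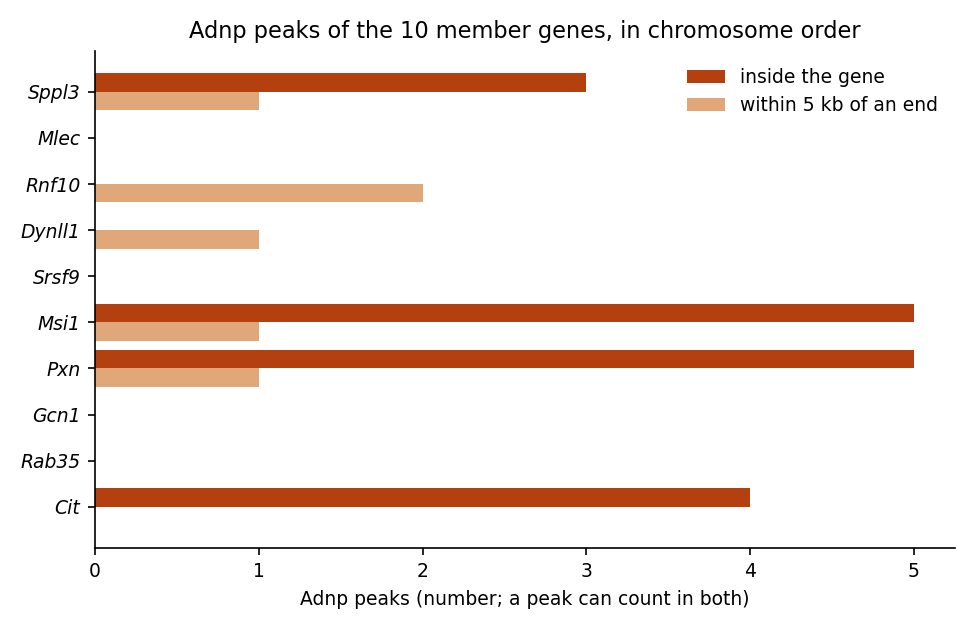
Number of Adnp peaks inside each member gene (orange) and within 5 kb of either end (pale orange), with genes in chromosome order from top to bottom; a peak can count in both. Msi1 and Pxn hold 5 each inside, Cit 4 and Sppl3 3, and Mlec, Srsf9, Gcn1 and Rab35 have 0 of either kind.

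Of the RNA-binding members, Msi1 (chr5:115359059-115455698, 96640 bp) held 5 peaks and Srsf9 (chr5:115327163-115333843) none. The Msi1 peaks lay in 2 groups at opposite parts of the gene. The first 3 began 1109, 5348 and 12237 bp above the lower end and had scores of 42.6, 7.13 and 12.8. The first of them spans chr5:115360168-115361183, and its edge lies 45 bp beyond the end of the lncRNA gene 4930401G09Rik, which overlaps the lower end of Msi1. The other 2, with scores of 22.2 and 8.76, ended 12701 and 11101 bp below the upper end. Between the groups lay the 70778 bp stretch without a peak. The table gives 1 span per gene over all its transcripts, so a shorter Msi1 transcript need not reach the first group. A peak with a score of 29.8 (chr5:115351132-115351724) lay in the space below Msi1, nearest to Cox6a1, a cytochrome oxidase subunit gene. Srsf9 was among the most distant members, its nearest peak 17289 bp from an end.

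Among the cytoskeletal members, Pxn (chr5:115491970-115555987, 64018 bp) held 5 peaks, with scores of 6.66, 14.7, 19.4, 9.64 and 28.4 in order of position. The sixth peak at Pxn lay just outside, 316 bp below its lower end, at chr5:115491152-115491654, with a score of 50.5. That peak lay within 1 kb of an end of Sirt4 as well. The 5 inside spanned from 11.0% to 76.5% of the gene, counted from its lower end, so the upper part of Pxn was empty.

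Cit (chr5:115845224-116008953, 163730 bp) held 4 peaks and had none within 5 kb of an end. They lay between 33.5% and 68.6% of the gene's length from its 5′ end, with scores of 24.1, 26.1, 8.06 and 95.6. The strongest, chr5:115957263-115957672, was the third highest of the locus and stood at rank 408 of the list. The start of Cit lay 24045 bp from its nearest peak, which was upstream. Dynll1 (chr5:115297110-115300990) is a short gene with no peak inside. Its nearest peak, with a score of 25.1, lay 4057 bp upstream of the start, inside the lncRNA gene Gm13830.

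Gcn1 (chr5:115565117-115622654, 57538 bp), the translation member, had no peak inside or within 20 kb of an end. The nearest, in Pxn, was 24047 bp away. Rnf10 (chr5:115241770-115272921) also held none, but 2 lay upstream of its start. They span chr5:115274414-115274748 and chr5:115276003-115276500, with scores of 27.2 and 24.7, and the nearer lay 1519 bp from the start. Both also lay within 5 kb of Coq5, a coenzyme Q synthesis gene.

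Of the membrane members, Sppl3 (chr5:115011524-115098790, 87267 bp) held 3 peaks with scores of 18.5, 12.2 and 23.5, between 35.6% and 89.8% of its length from the 5′ end. The first peak of the locus lay 6187 bp upstream of its start. Mlec (chr5:115142981-115158176) held none, and its nearest peak, with a score of 23.0, lay 5998 bp upstream. Rab35 (chr5:115631904-115647158) held none, and its nearest, in Bicdl1, was 18151 bp from an end.

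Per 10 kb of gene, the order was Pxn with 0.781 peaks (95% exact Poisson interval 0.254 to 1.82), Msi1 with 0.517 (0.168 to 1.21), Sppl3 with 0.344 (0.0709 to 1.00) and Cit with 0.244 (0.0666 to 0.626). These intervals cover counting error only, and they all overlap, so the order among these 4 is not resolved. The upper bound at Gcn1, with 0 peaks, was 0.641 per 10 kb. That lies above the lower bounds of all 4, so the 0 at Gcn1 is not resolved from them either. For the 5 shorter members without a peak inside, the upper bounds ran from 1.18 at Rnf10 to 9.50 at Dynll1, too wide for a 0 there to be told from the other members. The locus as a whole held 0.51 per 10 kb.

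Starts could be placed for the 8 members with a promoter sequence. Of these, 2 had a peak within 5 kb of a start (Rnf10 and Dynll1), where 13.6% of 17274 protein-coding genes with such a sequence did. The distance from start to nearest peak ran from 1519 bp at Rnf10 to 33322 bp at Rab35, with a median of 13904 bp, against 45554 bp over all such genes. Dense peaks, for which the locus was chosen, shorten such distances and raise such counts, so nothing is read from them. The nearest peak was upstream of the start at 7 of the 8 and downstream at Rab35. The same count over all genes was not made, so no preference for a side is read from it.

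Between protein-coding genes, the space from Cabp1 to Pop5 held the most peaks. Shorter spaces with 1 or 2 peaks were denser, up to 5.87 per 10 kb from Sirt4 to Pxn. The Cabp1 to Pop5 space is 41206 bp long and held 7 whole peaks, or 1.70 per 10 kb, with scores from 8.64 to 186. Of the 7, 2 lay inside the lncRNA gene Gm35515. The highest of the 7, chr5:115206673-115207717, had the top score of the locus and rank 49 of the list. It lay outside any annotated gene and was 1045 bp wide. Peaks with scores of 89.5 and 65.9 followed at chr5:115218339-115218875 and chr5:115222484-115222948. The space from Bicdl1 to Cit, 113379 bp, held 6 peaks with scores from 12.1 to 50.1, or 0.529 per 10 kb. Of the 22 spaces between protein-coding genes that reach into the locus, 12 held no whole peak. The longest of these 12, 9249 bp, lay between Gcn1 and Rab35. Others were shorter than any peak, down to 30 bp from Rpl37rt to Acads, where the narrowest listed peak was 251 bp. The same count over the genome was not made, so nothing is read from it.

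At gene ends, the strongest peaks belonged to Pla2g1b. A peak at chr5:115473094-115473748, inside the gene and 974 bp from its upper end, had a score of 175, rank 73 of the list. Its neighbour at chr5:115473903-115474727 covered the upper end itself and had a score of 68.9. A peak with a score of 8.63 lay 298 bp below its lower end. The 5 highest scores of the locus were thus 186, 175, 95.6, 89.5 and 68.9, of which 1 fell inside a member, Cit.

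Counted by position, 9 of the 51 peaks lay within 1 kb of an end of any annotated gene (17.6%, 95% Wilson interval 9.57% to 30.3%), against 13.2% of the whole list. Inside genes lay 26 (51.0%, 37.7% to 64.1%), against 50.6%, and between genes 16 (31.4%, 20.3% to 45.0%), against 36.3%. Each interval took in the list's share, so no difference in position was detectable with 51 peaks. Neighbouring peaks are not independent, which the intervals do not allow for.

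Scores and widths did not take part in the choice of the locus. The median score was 23.7 (95% order-statistic interval 18.5 to 26.9) against 21.2 over the list, within that interval. The quartiles were 12.3 and 30.4 against 13.9 and 33.6, and scores ran from 6.06 to 186. At or above the list's median lay 30 of the 51 peaks (58.8%, 95% Wilson interval 45.2% to 71.2%). Peaks were wider than in the list, with a median of 462 bp (410 to 503 bp) against 396 bp. The list's median lies outside that interval, but peaks are not replicates and no test was made. The widest, 1404 bp, lay at chr5:115202236-115203639 in the lncRNA gene Gm35515, beside the top-scoring peak.

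No HP1γ peak lay in the locus, and 0 of its 51 Adnp peaks overlapped one, against 1.95% of the list. Of the 10 members, 0 had an HP1γ peak inside or within 5 kb, where 3.88% of protein-coding genes did. The nearest HP1γ peaks lay 178 kb below the locus and 291 kb above it, and the 1468 kb between them held 67 Adnp peaks. A window without HP1γ peaks was common: of 2561 windows of 1 Mb, 61.1% had none. Among the 21 windows with 40 or more Adnp peaks, 5 had none (23.8%). The HP1γ list by its title leaves out peaks with the Adnp motif, so HP1γ at Adnp sites with the motif would not appear in it.

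Set beside the genome, the locus ranked 5 of 2561 windows by Adnp peaks and 1 of 148 on chromosome 5. The median window held 2 peaks, and the exact Poisson interval of the 51 was 38.0 to 67.1. That interval covers counting error only. It allows neither for the choice of the locus by this count nor for peaks that are not independent. The megabases just below and just above it held 34 and 26. With 23 protein-coding genes against a median of 5, the locus is also rich in genes. The 203 windows with at least as many genes held from 0 to 56 Adnp peaks, with a median of 15.

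**Figure D4:**
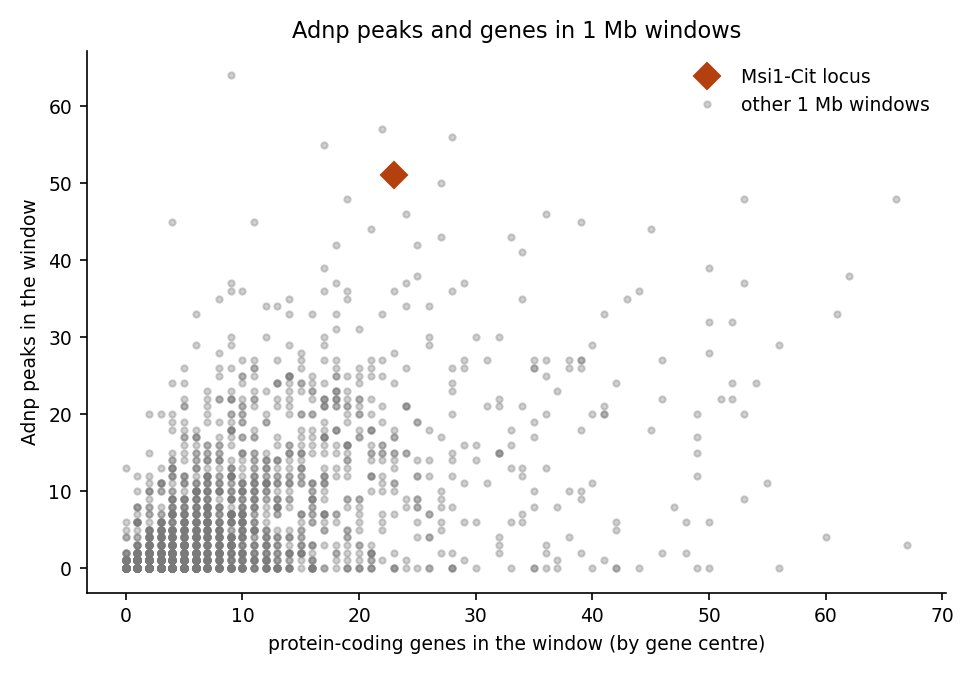
Adnp peaks (y axis) and protein-coding genes by gene centre (x axis) in windows of 1 Mb, with the Msi1-Cit locus as a diamond and the other windows as grey circles. The locus has 51 peaks and 23 genes, and gene-rich windows range down to 0 peaks.

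The windows above it were chromosome 11 from 107 Mb with 64 peaks, chromosome 4 from 132 Mb with 57, chromosome 11 from 97 Mb with 56 and chromosome 17 from 29 Mb with 55. The median gap was 8624 bp in the Msi1-Cit locus, against 3102, 7393, 7244 and 12988 bp in these 4 windows, in the order named. Runs held 49.0% of the locus's peaks, against 65.6%, 47.4%, 39.3% and 20% of theirs. The locus's median score of 23.7 lay within the range of the 4, from 20.2 to 26.7. The locus thus fell inside the range of these windows in all 3 measures, and no test was made between them.

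Msi1 and Cit were each set beside protein-coding genes of like length elsewhere. Of 1256 genes within 20% of the length of Msi1, 28 (2.23%) held 5 or more Adnp peaks and 695 held none. The 3 nearest in count and length were Lrp5 on chromosome 19, a Wnt co-receptor gene, Fam169b on chromosome 7 and Mybpc1 on chromosome 10, a myosin-binding protein gene, with 5 peaks each. Of 706 genes of like length to Cit, 54 (7.65%) held 4 or more. The 3 nearest were Aff1, a transcription elongation factor gene, and Flt1, a VEGF receptor gene, both on chromosome 5, and the kinesin gene Kif13b on chromosome 14, with 4 each. Msi1 and Cit were picked from a dense locus, so these shares carry no test.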

How the data were processed

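ChIP-seq peaks were analysed as 2 lists deposited by the authors without header lines. The submitters' processing notes name mm10 (GRCm38) and MACS2, with Bowtie 1.0.0 among the tools, and give no role or setting. How replicates were combined and which peaks were filtered out is not given in the sources used here. Column 5 holds a score per peak by the authors in the Adnp list and 0 in every row of the deposited HP1γ list. Neither list gives counts or depth, so precision follows from numbers of peaks alone.

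Peaks were placed by centre in windows of 1 Mb from 3 Mb upward. Genes, with 1 span each, came from a RefSeq table of GRCm38.p6, and starts and strand from its promoter table. A peak was at a gene end if any part lay within 1 kb of either end, otherwise inside a gene if it overlapped one. Shares carry 95% Wilson intervals, counts exact Poisson intervals and medians order-statistic intervals. No p-value was computed. The members and lists were chosen with earlier results of these data known. All members were named, with other protein-coding genes of the locus that have a peak inside or within 5 kb, and for Msi1 and Cit the 3 genes nearest in count within 20% of their length. Rplp0, the lncRNA genes and the printed promoters were chosen after values were seen, since no member with a promoter sequence had a peak within 1 kb of its start. Interval functions were tested on simulated data. Alternatives were other end windows, protein-coding genes alone, peak centres, the higher-scoring part of the list, other gaps for runs and other boundaries. Intervals came from SciPy 1.17.1, tables from pandas 2.3.3 under Python 3.11.15, and plots from matplotlib 3.10.9.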

Additional observations from a re-analysis of the deposited data

How the results depend on the processing

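Under the alternatives, 8 values moved and 16 stayed within the interval of the reported value, or within 1.5 times it for counts. Of those 16, the median gap was 14400 bp (60044 bp in the list) with the higher-scoring peaks, and the share at gene ends 9.80% (8.09% in the list) with ends of 500 bp, both over 1.5 times from the reported value. With Adnp peaks at or above the list's median score, the locus kept 30 peaks and runs held 13.3% of them (4.36% of the list). Runs with gaps of at most 5 kb held 7.84% of the locus's peaks (4.72% of the list) and with gaps of at most 20 kb 72.5% (27.2% of the list). With gene ends of 5 kb, 49.0% of the locus's peaks lay at ends and 31.4% inside genes, where the list had 43.2% and 34.7%. Members with a peak numbered 1 within 1 kb of an end and 9 within 20 kb, with Gcn1 the exception. Of all protein-coding genes, 5.38% had a peak within 1 kb of an end and 41.2% within 20 kb. The share in runs thus changes with the gap allowed and with the part of the list kept. Fewer peaks leave fewer runs in the whole list too, and a role of the score itself was not tested. Shares with wider windows move by construction, since more peaks fall within them. The share of the locus's HP1γ peaks that overlap an Adnp peak, planned with stricter and looser overlap, could not be computed, since the locus holds no HP1γ peak. No paired analysis was possible because each factor has 1 list for all replicates, and for the same reason no replicate could be left out. With 51 peaks, differences in position within the intervals above could not be detected, and read depth is unknown.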

Other observations

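Relatives and partners of the members, kept as a list of 28 genes, were looked up for Adnp peaks. Of these, 11 (39.3%) had a peak within 5 kb of an end and 11 had one inside, where 19.3% and 20.7% of all protein-coding genes did. Msi2, the paralogue of Msi1 on chromosome 11, held 4 peaks over a gene of 378925 bp. Among cytokinesis genes, Anln (anillin) and Kif14 (a kinesin that binds citron kinase) held 3 each, with highest scores of 52.3 and 53.2. Aurkb held none but had 1 within 5 kb of an end, with a score of 16.0. Prc1, Kif23, Racgap1 and Ect2 held none and had none within 5 kb. Rhoa held 3. Of the focal adhesion genes, Vcl (vinculin) held 1 with a score of 87.0, Ptk2 held 2, Tln1 held 1 and Zyx had 1 within 5 kb of an end, while Ilk, Lpxn and Tgfb1i1 had none of either kind. HP1γ peaks inside or within 5 kb were found at 3 of the 28 genes, where 3.88% of all protein-coding genes had one. Of these peaks, 2 lay at Tln1, 1 at Ptk2 and 1 at Vcl. Of the 7 Srsf genes, Srsf1 had 3 peaks within 5 kb of an end, Srsf3 2 and Srsf7 1. The list was chosen with results of these data known, and no test was made.

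The names of the Adnp peaks on chromosome 5 are numbered in order of position with no exception. In the locus they run from 21983 to 22063, and 51 of these 81 numbers are listed (63.0%, 95% Wilson interval 52.1% to 72.7%), where 48.2% of all numbers up to 31188 are. The locus was chosen for its number of listed peaks, so this share is not independent of that choice and carries no test. In Msi1, 1 peak, with the score of 7.13, stands among the 359 peaks that follow the position-sorted block of the deposited list; the other 50 stand within that block.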
